A study of Mus musculus with 12 samples.

Results

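The comparison set 3 mRNA sequencing libraries of an Etl4 knockout (KO) line of EG1 against 3 libraries of wild-type (WT) EG1, 6 of the 12 libraries of the series, chosen by the genotype and cell line that the labels give. EG1 is a mouse line of androgenetic haploid embryonic stem cells (ESCs) on a C57BL/6 background. By the labels, both groups therefore share the parental line, the strain and a haploid genome of paternal origin. The share of diploid cells in each group was not measured here. The KO group differed by its Etl4 KO genotype alone as far as the labels go, and no treatment or time point is given for either group. The labels name 1 KO line of EG1, so that an effect of the genotype and a property of that line cannot be told apart, and the sources used here do not say how the gene was edited. The other 6 libraries of the series come from a second parental line, OdG (2 of each of 2 Etl4 KO lines and 2 of WT), and serve below as a comparison of the KO effect. Nothing in the labels says that replicates were separate cultures, so p-values reflect how much these libraries vary, and that may be technical variation.

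Haploid ESCs carry a single chromosome set and tend to become diploid in culture, and the title of the study concerns Etl4 loss as a means of keeping them haploid. Etl4, also known as Skt, encodes a large coiled-coil protein. A small part of what moved here belongs to pathways with a clear layout. In the integrated stress response, kinases that sense amino acid shortage, endoplasmic reticulum (ER) stress or other stresses phosphorylate the initiation factor eIF2, which slows most translation while allowing translation of the transcription factor ATF4, whose targets import and make amino acids and charge transfer RNAs. In the hypoxia response, prolyl hydroxylases of the EGLN family mark the HIF subunits for destruction while oxygen is present, and without them HIF raises glucose uptake, glycolysis and vessel growth factors. In mouse ESC cultures a small and changing minority of cells enters a 2-cell-like state, in which the factor DUX and the Zscan4 cluster are switched on as in the embryo when its genome is first transcribed.

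Levels are in CPM, which divides each count by the size of its library. Library totals ran from 17421260 to 17759834 counts in KO and from 17657750 to 19706599 in WT, and 17295 to 17332 symbols were detected in KO, against 17455 to 17594 in WT. The ESC markers Pou5f1, Sox2, Nanog, Esrrb, Zfp42, Klf4, Tfcp2l1, Dppa5a, Sall4 and Tdgf1 summed to 9573 to 9806 CPM in KO and to 9642 to 9779 CPM in WT, so the labelled cell type held in all 6 libraries. Of 7 markers of fibroblast feeders, Postn, Lum and Dcn were at 0 in every library. Col1a1 had 6.70 to 8.55 CPM in KO and 4.60 to 5.46 CPM in WT, and was called higher in KO (log2 0.58). Thy1 had 4.66 to 4.68 CPM in KO and 4.44 to 5.96 CPM in WT, and was not called. The 7 markers summed to 11.4 to 13.3 CPM in KO and to 9.47 to 10.9 CPM in WT. Counts do not measure ploidy, so the haploid state rests on the labels. In a principal component analysis, the first component (47.8% of the variance) parted KO from WT, and the second (18.5%) set KO replicate 1, at -7.74, apart from KO replicates 2 and 3, at 5.05 and 3.20. Some results below are therefore also given without that library.

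Etl4 itself had 131, 134 and 132 CPM in the KO libraries, against 265, 264 and 260 CPM in the WT libraries (mm10 chr2:19910207-20810535, plus strand). The groups were far apart relative to their spread, with means of 132 ± 1.34 CPM in KO and 263 ± 2.75 CPM in WT (SD, n = 3 each), and the level in KO was 50.2% of that in WT. The log2 fold change was -0.99 ± 0.04 (SE, KO over WT, adjusted p = 7.8e-20 by edgeR's quasi-likelihood test). Counts per gene do not show where in Etl4 the remaining reads lie. Of the 5 annotated neighbours on each side, Msrb2, Otud1, Arhgap21 and Thnsl1 had enough counts to be tested, and none was called. Arhgap21, the nearest, averaged 104 ± 3.62 CPM in KO and 101 ± 1.45 CPM in WT.

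Across the transcriptome the KO effect was broad in number and small in size. Of 14016 genes tested, 1074 (7.66%) were called at an adjusted p under 0.05, of which 505 were higher in KO (3.6% of genes tested) and 569 lower (4.06%). The median absolute log2 change of called genes was 0.26, and 81.4% of them changed by less than 1.5-fold. Changes of at least 1 on the log2 scale numbered 11 upward and 44 downward, and 14 of those 44 had at least 5 CPM in WT. Every KO library lay above every WT library for 12.5% of genes tested and below for another 12.5%, a share against which counts of non-overlapping genes below can be read. The count of calls depended on single libraries. It fell to 638, 672 and 658 without WT replicate 1, 2 and 3, with 257, 283 and 293 of these higher, and 365 lower without WT replicate 3. Without KO replicate 1, 2 and 3 it was 1213, 882 and 760.

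**Figure D1:**
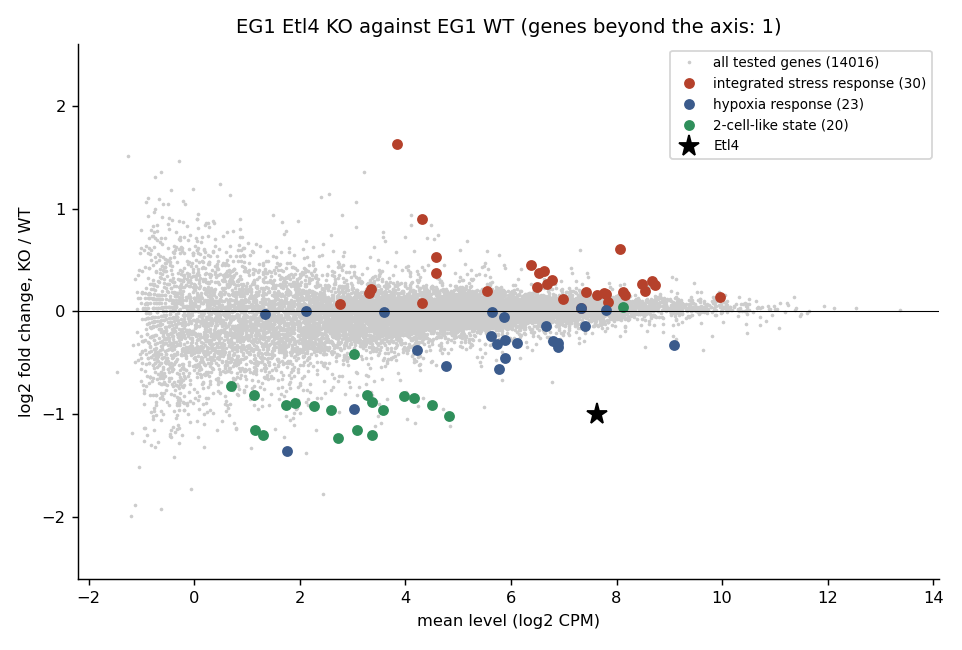
Log2 fold change of EG1 Etl4 KO over EG1 WT (vertical axis) against the mean level of each tested gene (log2 CPM, horizontal axis), 1 point per gene, with 3 lists and Etl4 marked. Etl4 stands apart from genes of similar level at -0.99, the stress response genes lie above 0, and the hypoxia and 2-cell-like genes lie mostly below 0.

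The group of genes that rose most evenly was that of the integrated stress response. Of 32 genes listed, 30 were tested and 23 were called higher in KO, none was called lower, and all 30 had a positive log2 change, with a median of 0.21, against a median of 0.00 over all genes tested. The response's central factor, Atf4, had 324, 321 and 322 CPM in KO, against 205, 213 and 218 CPM in WT. The groups did not overlap, and the log2 change was 0.60 ± 0.04 (adjusted p = 4.7e-14). Chac1, a glutathione-degrading enzyme and ATF4 target, was the largest rise among named genes, with 22.2, 19.19 and 23.3 CPM in KO, against 6.41, 7.39 and 7.07 CPM in WT. Its level in KO was 3.09-fold that in WT (log2 1.63 ± 0.10, adjusted p = 1.1e-13). Trib3, a pseudokinase that feeds back on ATF4, had 27.7, 24.7 and 25.4 CPM in KO, against 13.2, 12.8 and 15.6 CPM in WT (log2 0.90 ± 0.08, adjusted p = 1.9e-09). All 3 genes kept their calls under each alternative scaling, filter, tool and left-out library.

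The rise extended to the enzymes and transporters that ATF4 is known to serve. Pck2, the mitochondrial phosphoenolpyruvate carboxykinase, averaged 96.6 ± 2.05 CPM in KO and 70.9 ± 1.45 CPM in WT (log2 0.45, adjusted p = 6.5e-09). Of the serine pathway, Psat1 averaged 449 ± 3.37 CPM in KO and 365 ± 5.71 CPM in WT (log2 0.30), and Phgdh averaged 235 ± 11.02 CPM in KO and 210 ± 4.25 CPM in WT (log2 0.17). Mthfd2, the mitochondrial folate enzyme, averaged 113 ± 7.26 CPM in KO and 85.9 ± 3.15 CPM in WT (log2 0.39, adjusted p = 2.1e-07). Cth, which makes cysteine from cystathionine, rose by 0.38, the amino acid transporters Slc7a5, Slc3a2 and Slc7a3 by 0.18, 0.16 and 0.16, and the transfer RNA synthetases Nars, Aars, Gars and Sars by 0.27, 0.25, 0.20 and 0.19 on the log2 scale. Ddit3, the stress factor also called CHOP, was among the 7 members not called, with 10.6 ± 0.72 CPM in KO and 9.36 ± 1.02 CPM in WT (log2 0.17, adjusted p = 0.38).

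Neighbouring stress lists had smaller shares called than the integrated stress response. Members called higher made up 8.70% of the ER chaperone list, 5.88% of heat shock proteins and 4.76% of the NRF2 antioxidant list. Over all genes tested the share was 3.6%. Of 23 ER chaperones and unfolded protein response genes, Herpud1, an ER-associated degradation factor, and Dnajb11 were called higher. Herpud1 had 21.8, 22.1 and 23.8 CPM in KO, against 12.7, 11.8 and 11.01 CPM in WT (log2 0.93 ± 0.08, adjusted p = 1.2e-09), with no overlap, whereas Dnajb11 changed by 0.15 and lost its call in 5 of the alternatives. Of 17 heat shock proteins 1 was called higher (Hspb1, log2 0.13), and of 21 genes of the NRF2 antioxidant response 1 was called in each direction (Prdx6, 0.25, and Gpx4, -0.14). Of 24 genes of the pentose phosphate and one-carbon pathways, 6 were called higher and none lower, but 4 of the 6 belong to the stress response list as well.

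**Figure D2:**
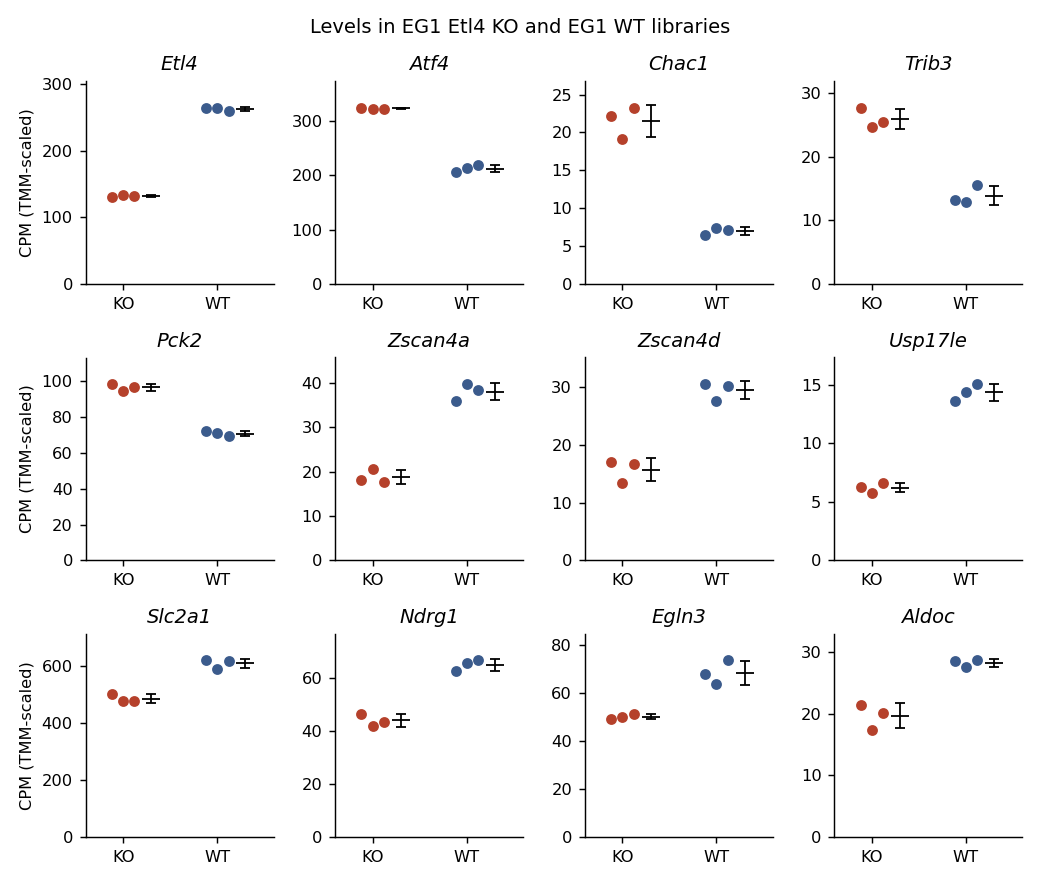
Levels (CPM after TMM scaling, vertical axes from 0) of 12 genes in the 3 KO libraries (left, red) and the 3 WT libraries (right, blue), with mean ± SD as bars beside the points. KO and WT libraries do not overlap for any of these genes, with Atf4, Chac1, Trib3 and Pck2 above WT and the other 8 below. Several of them were named by a rule that required no overlap.

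The promoter windows of 3 called stress response genes are shown because they hold the composite element that ATF4 binds together with C/EBP factors, searched as TGATGNAAT on both strands. A window runs from 250 bases before to 50 after an annotated start (RefSeq, GRCm38.p6), and capitals mark the match, which in all 3 lies on the strand opposite to that printed.
Aars (chr8:111033592-111033891, plus strand): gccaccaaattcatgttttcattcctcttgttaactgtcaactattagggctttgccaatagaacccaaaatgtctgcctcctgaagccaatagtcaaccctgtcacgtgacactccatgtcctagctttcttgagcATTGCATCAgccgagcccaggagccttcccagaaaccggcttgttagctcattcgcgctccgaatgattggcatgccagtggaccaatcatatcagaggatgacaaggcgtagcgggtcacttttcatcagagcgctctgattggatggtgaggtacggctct
Gars (chr6:55037751-55038050, plus strand): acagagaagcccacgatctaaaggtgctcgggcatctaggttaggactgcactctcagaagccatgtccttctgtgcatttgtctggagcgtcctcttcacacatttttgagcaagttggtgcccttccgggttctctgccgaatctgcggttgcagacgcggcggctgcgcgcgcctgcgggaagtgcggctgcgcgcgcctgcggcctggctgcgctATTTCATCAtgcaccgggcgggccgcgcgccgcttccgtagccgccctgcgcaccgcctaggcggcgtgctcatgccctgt
Nupr1 (chr7:126625421-126625720, minus strand): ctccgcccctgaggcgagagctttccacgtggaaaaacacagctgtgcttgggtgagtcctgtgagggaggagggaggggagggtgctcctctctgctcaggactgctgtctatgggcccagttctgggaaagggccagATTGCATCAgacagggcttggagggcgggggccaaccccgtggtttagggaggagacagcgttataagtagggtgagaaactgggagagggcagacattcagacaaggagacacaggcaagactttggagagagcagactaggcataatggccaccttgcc
Of the 23 called members, 18 had windows in the table, 20 windows in all, and 3 of the 20 (15.0%) held the element, against 0.50% of the 14111 windows of tested genes and 0.96% of all 32851 windows. Over all genes called higher the share was 1.11% of 539 windows. The alanyl and glycyl transfer RNA synthetases Aars and Gars averaged 462 ± 15.8 and 398 ± 5.76 CPM in KO, against 387 ± 1.63 and 348 ± 3.71 CPM in WT. Nupr1, a small stress-induced chromatin protein, averaged 27.0 ± 2.87 CPM in KO and 20.9 ± 0.91 CPM in WT (log2 0.37, adjusted p = 0.0012). A match describes these letters only, and the other windows may hold the element in other spellings or further away. The list was drawn up from genes known for this response, and its members not called were not compared, so its share does not describe the KO effect.

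The 2-cell-like genes fell together and gave the largest median change of the lists. Of 22 genes listed, 20 were tested, and 18 were called lower in KO and none higher, with a median log2 change of -0.91. Zscan4a, of the cluster that marks the state, had 18.2, 20.5 and 17.7 CPM in KO, against 35.9, 39.8 and 38.4 CPM in WT (log2 -1.02 ± 0.07, adjusted p = 2.1e-12). Zscan4d had 17.0, 13.4 and 16.8 CPM in KO, against 30.6, 27.7 and 30.2 CPM in WT (log2 -0.91 ± 0.08, adjusted p = 1.0e-09). Neither gene's KO libraries came near its WT libraries. Dux, the factor that opens the programme, averaged 2.63 ± 0.55 CPM in KO and 4.91 ± 0.40 CPM in WT (log2 -0.89 ± 0.18, adjusted p = 8.0e-04). Usp17le, of a cluster of deubiquitinase genes, had 6.27, 5.79 and 6.59 CPM in KO, against 13.6, 14.3 and 15.0 CPM in WT, and Zfp352, a zinc finger gene, had 3.88, 4.54 and 3.47 CPM in KO, against 8.66, 10.1 and 9.14 CPM in WT.

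Outside the Zscan4, Usp17l, Tcstv and Tdpoz genes, Tmem92 averaged 11.4 ± 0.57 CPM in KO and 20.2 ± 1.36 CPM in WT (log2 -0.82). Sp110 and Arg2 fell by 1.20 and 0.91 on the log2 scale. Sp110 averaged under 5 CPM in both groups, and whether it shares reads with similar copies was not tested. The listed members not called were Tdpoz1 (log2 -0.73, adjusted p = 0.091) and Eif1a, which averaged 283 ± 18.3 CPM in KO and 275 ± 3.72 CPM in WT. Zscan4, Usp17l, Tcstv and Tdpoz genes are near-identical copies whose reads the counting could have divided among them, so that the value of a given copy is uncertain while the direction was common to the cluster. Without KO replicate 1, 16 members were called lower and 1 higher. In bulk libraries fewer cells in the state and less RNA per such cell cannot be told apart. Of the 44 genes that fell by at least 1 on the log2 scale, 6 were in this list.

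Hypoxia response genes and glycolytic genes also fell, by smaller amounts. Of 24 hypoxia genes, 23 were tested, 16 were called lower and none higher, with a median log2 change of -0.29. Slc2a1, the main glucose transporter, had 504, 476 and 476 CPM in KO, against 620, 591 and 617 CPM in WT (log2 -0.33 ± 0.03, adjusted p = 8.8e-09). Ndrg1, a stress-responsive cytoplasmic protein, had 46.7, 42.1 and 43.5 CPM in KO, against 62.7, 65.7 and 66.8 CPM in WT (log2 -0.56 ± 0.05, adjusted p = 3.9e-09). Egln3, a prolyl hydroxylase that is itself a HIF target, had 49.0, 50.03 and 51.2 CPM in KO, against 67.8, 63.7 and 73.6 CPM in WT (log2 -0.45 ± 0.05, adjusted p = 3.2e-07). None of these groups overlapped. The largest falls were in genes of low level, the peptide hormone Adm with 1.89 ± 0.51 CPM in KO and 4.84 ± 0.62 CPM in WT (log2 -1.36 ± 0.20), and Ndufa4l2, a mitochondrial protein induced in hypoxia, with 5.57 ± 1.01 CPM in KO and 10.8 ± 0.66 CPM in WT (log2 -0.95 ± 0.12).

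The collagen prolyl hydroxylase P4ha2 averaged 22.4 ± 0.71 CPM in KO and 32.3 ± 1.02 CPM in WT (log2 -0.53 ± 0.07), and the mitophagy receptor Bnip3 averaged 104 ± 7.99 CPM in KO and 132 ± 1.08 CPM in WT (log2 -0.34). Vegfa, the vessel growth factor, fell by 0.14 on the log2 scale (adjusted p = 0.011). The 7 members not called, among them Ddit4, Kdm3a, Hilpda and Mxi1, had log2 changes between -0.05 and 0.03. In the glycolysis list, 14 of 23 tested genes were called lower and none higher, with a median of -0.16, and the lists share 4 tested genes, of which Slc2a1, Slc16a3 and Pfkfb3 were called. Pgk1, which makes the first ATP of the pathway, averaged 1319 ± 30.5 CPM in KO and 1524 ± 20.2 CPM in WT (log2 -0.21 ± 0.03, adjusted p = 2.2e-06). Gpi1, the glucose phosphate isomerase, averaged 823 ± 37.2 CPM in KO and 972 ± 21.6 CPM in WT (log2 -0.24), and the aldolase Aldoc had 21.4, 17.4 and 20.1 CPM in KO, against 28.5, 27.6 and 28.7 CPM in WT (log2 -0.52 ± 0.07). Pkm, Ldha and Hk2 were not called (log2 -0.01, -0.04 and -0.07). The value for Gapdh (log2 -0.66) is uncertain, since near-identical copies elsewhere in the genome could share its reads, which was not tested.

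Windows of 4 called hypoxia genes are shown because they hold the core of the element that HIF binds, searched as ACGTG on both strands (RefSeq, GRCm38.p6). Capitals mark the matches, and where matches on both strands overlap they run together as CACGTG, which is also an E-box.
Slc2a1 (chr4:119108495-119108794, plus strand): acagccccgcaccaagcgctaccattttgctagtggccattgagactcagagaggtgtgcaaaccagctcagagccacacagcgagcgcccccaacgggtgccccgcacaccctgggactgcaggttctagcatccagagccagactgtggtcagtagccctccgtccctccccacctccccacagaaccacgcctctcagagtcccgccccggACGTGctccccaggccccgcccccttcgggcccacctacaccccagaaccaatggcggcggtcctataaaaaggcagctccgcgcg
Egln3 (chr12:54203825-54204124, minus strand): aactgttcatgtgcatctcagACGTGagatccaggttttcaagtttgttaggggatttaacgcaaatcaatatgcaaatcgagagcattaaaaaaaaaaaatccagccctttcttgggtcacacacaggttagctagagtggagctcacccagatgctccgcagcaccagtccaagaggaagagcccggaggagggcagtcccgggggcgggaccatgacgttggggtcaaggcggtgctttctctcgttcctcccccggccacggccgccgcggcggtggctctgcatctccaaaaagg
P4ha2 (chr11:54100674-54100973, plus strand): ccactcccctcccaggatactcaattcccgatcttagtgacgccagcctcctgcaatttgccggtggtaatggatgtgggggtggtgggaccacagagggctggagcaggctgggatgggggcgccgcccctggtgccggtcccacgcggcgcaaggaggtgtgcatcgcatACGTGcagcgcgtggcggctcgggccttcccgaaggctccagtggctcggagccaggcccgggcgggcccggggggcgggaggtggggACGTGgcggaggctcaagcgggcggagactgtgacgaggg
Bnip3 (chr7:138909457-138909756, minus strand): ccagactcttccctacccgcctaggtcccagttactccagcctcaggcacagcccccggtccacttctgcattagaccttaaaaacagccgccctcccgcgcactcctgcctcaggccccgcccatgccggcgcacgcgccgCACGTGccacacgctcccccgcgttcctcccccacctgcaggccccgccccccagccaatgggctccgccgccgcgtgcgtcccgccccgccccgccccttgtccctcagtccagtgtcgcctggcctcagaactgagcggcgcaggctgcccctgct
Of the 16 called genes, 13 had windows, 16 in all, and 12 of these (75.0%) held the core, against 25.2% of the windows of tested genes and 19.6% of all windows. The called glycolysis genes had it in 10 of 18 windows (55.6%), and all genes called lower had it in 25.7% of 579 windows. The core is short and common, and a match is not evidence of binding. The hypoxia list was drawn up from genes known for that response, and its members not called were not compared. Its share therefore does not describe the KO effect.

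**Figure D3:**
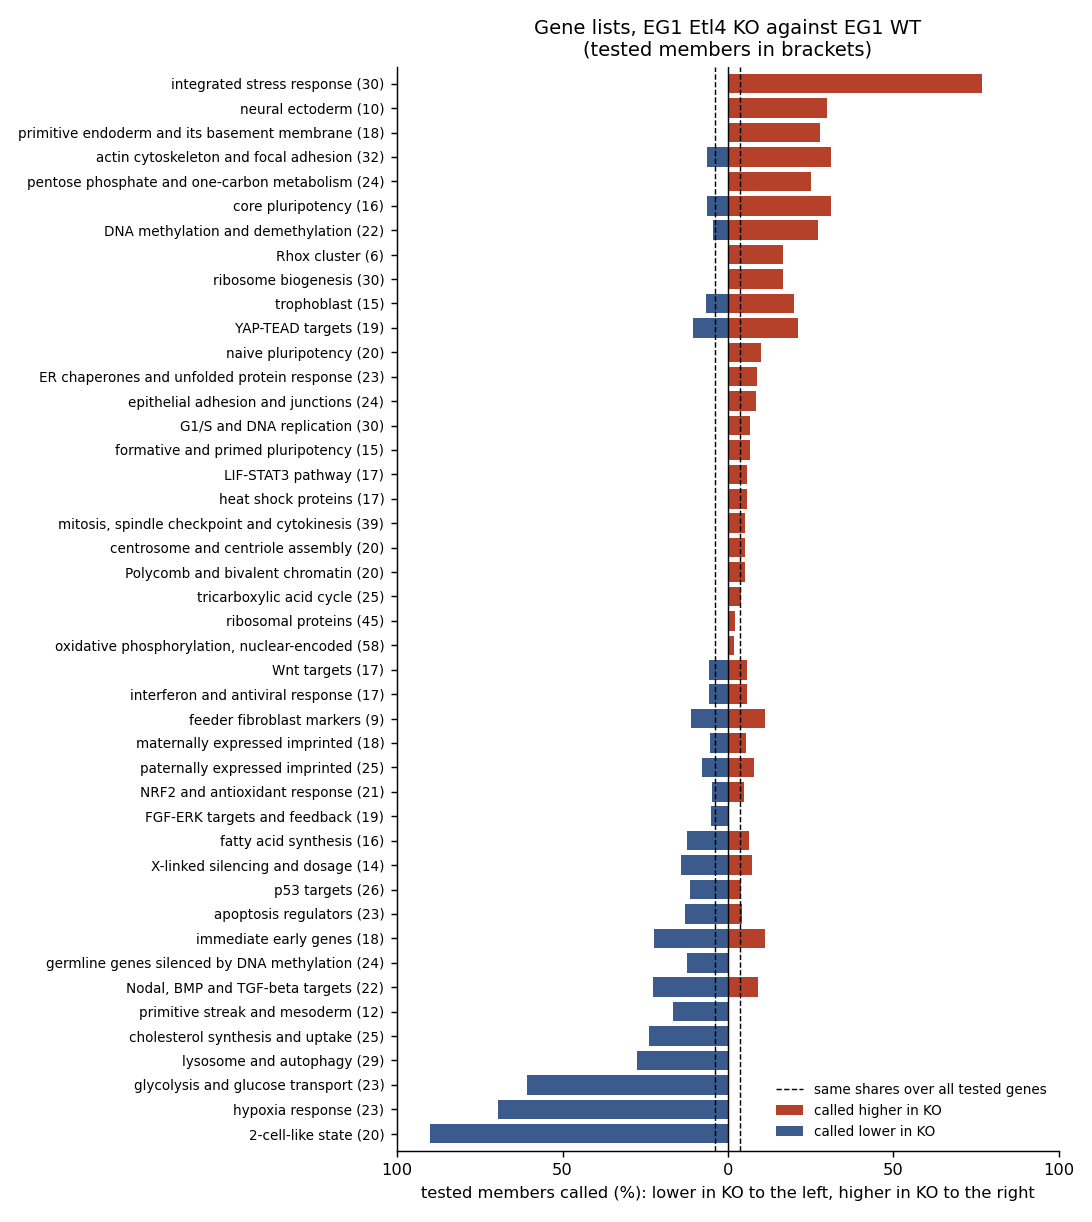
Share of the tested members of each of 44 gene lists called higher in KO (red, to the right) and lower in KO (blue, to the left), in percent, with the number of tested members in brackets and the shares over all tested genes as dashed lines. The integrated stress response leads on the higher side at 76.7%, and the 2-cell-like, hypoxia and glycolysis lists lead on the lower side at 90.0%, 69.6% and 60.9%.

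Pluripotency genes were little changed at the top of the network. Pou5f1, Sox2 and Nanog had log2 changes of 0.04, -0.03 and 0.02, and none was called. Of 16 core pluripotency genes, 5 were called higher and 1 lower (Tdgf1, the Nodal co-receptor, log2 -0.12). Dnmt3l, the cofactor of the de novo DNA methyltransferases, had 43.9, 44.9 and 44.3 CPM in KO, against 28.2, 27.0 and 27.6 CPM in WT, with tight and separate groups (log2 0.68 ± 0.06, adjusted p = 5.6e-10). The RNA-binding protein gene Lin28a had 30.0, 30.8 and 31.2 CPM in KO, against 20.4, 22.9 and 24.2 CPM in WT (log2 0.45 ± 0.07), and Utf1, a chromatin factor of ESCs, averaged 51.0 ± 4.43 CPM in KO and 40.0 ± 2.19 CPM in WT (log2 0.35). Of 20 naive pluripotency genes, Zfp42 (0.14) and Tet2 (0.12) were called higher, and without KO replicate 2 or WT replicate 2 neither was. Of 22 genes of DNA methylation and demethylation, 6 were called higher and 1 lower, and the methyltransferase Dnmt3b averaged 136 ± 2.20 CPM in KO and 111 ± 6.76 CPM in WT (log2 0.29 ± 0.04, adjusted p = 8.7e-06). Without WT replicate 2, 3 of the 6 were called. The list shares Dnmt3l and Trim28 with the core list and Zfp42 and Tet2 with the naive list.

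Genes of the cytoskeleton and matrix rose in part. Of 32 tested actin cytoskeleton and focal adhesion genes, 10 were called higher, among them Actb, Flna and Cald1 (log2 0.14, 0.16 and 0.23), and 2 lower, the calcium-dependent membrane binder Anxa2 (log2 -0.48 ± 0.07) and the tropomyosin Tpm2 (log2 -0.52 ± 0.12). The 10 became 6 without WT replicate 1 and 6 without WT replicate 3. Of 19 YAP-TEAD targets, 4 were called higher in the full set and in each set with a library left out, and 2 were called lower, Myof (log2 -0.28) and Arhgef17 (log2 -0.18). Neither of those 2 was called without WT replicate 1 or KO replicate 3, nor by DESeq2, and 1 was called without WT replicate 2, WT replicate 3 or KO replicate 2. Cyr61, a matricellular protein, had 39.5, 39.7 and 39.8 CPM in KO, against 23.9, 25.9 and 28.9 CPM in WT (log2 0.59 ± 0.07, adjusted p = 8.1e-08), and Amotl2, which binds YAP at junctions, averaged 161 ± 3.12 CPM in KO and 120 ± 4.14 CPM in WT (log2 0.42 ± 0.04, adjusted p = 2.5e-09). Of 18 tested genes of primitive endoderm and its basement membrane, 5 were called higher and none lower, among them the collagen IV pair Col4a1 and Col4a2. These averaged 196 ± 8.003 and 109 ± 6.88 CPM in KO, against 155 ± 2.59 and 87.9 ± 2.58 CPM in WT (log2 0.34 and 0.31). The laminin chain Lama5, kept on the list of epithelial adhesion genes, averaged 621 ± 28.0 CPM in KO and 499 ± 4.89 CPM in WT (log2 0.31). The primitive endoderm factors Gata4, Sox17 and Sox7 of the collagen IV pair's list were not called, and 6 markers of that lineage summed to 7.00 to 8.15 CPM in KO and to 7.59 to 8.46 CPM in WT.

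Some cholesterol and lysosomal genes were lower. Of 25 cholesterol synthesis and uptake genes, 6 were called lower and none higher. The 6 became 9 without KO replicate 1 and 5 without KO replicate 3, WT replicate 1 or WT replicate 2. Insig1, the sterol-sensing ER protein that restrains the pathway, averaged 248 ± 4.58 CPM in KO and 291 ± 7.83 CPM in WT (log2 -0.24 ± 0.03, adjusted p = 1.3e-05), and the synthesis enzymes Dhcr7 and Msmo1 fell by 0.34 and 0.29 on the log2 scale. The squalene epoxidase Sqle was not called (log2 -0.04). Of 16 fatty acid synthesis genes, the glucose-responsive factor Mlxipl was called higher (log2 0.45) and the desaturases Scd1 and Scd2 lower (log2 -0.17 and -0.12), with a median of 0.00. Of 29 lysosome and autophagy genes, 8 were called lower, among them the membrane protein Lamp2 (log2 -0.21 ± 0.04, adjusted p = 7.8e-04). That count was 2, 3 and 1 without WT replicate 1, 2 and 3, and 4 without KO replicate 2 or KO replicate 3. It was 11 without KO replicate 1.

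Genes outside the lists included several of the largest changes. Bphl, a mitochondrial serine hydrolase, had 2.45, 2.39 and 2.54 CPM in KO, against 8.44, 7.67 and 9.24 CPM in WT, a 3.44-fold lower level (log2 -1.78 ± 0.15, adjusted p = 3.9e-10). Insr, the insulin receptor, had 18.6, 20.05 and 15.6 CPM in KO, against 38.6, 40.1 and 38.6 CPM in WT (log2 -1.11 ± 0.07, adjusted p = 7.1e-13). Bhlhe40, a circadian and hypoxia-responsive repressor that is not on the hypoxia list, had 86.1, 84.7 and 80.2 CPM in KO, against 136, 137 and 132 CPM in WT (log2 -0.69 ± 0.04, adjusted p = 1.1e-13). In all 3 genes the KO libraries lay below the WT libraries, as the rule that named them required. Cacna1h, a T-type calcium channel subunit, averaged 2.42 ± 0.50 CPM in KO and 6.28 ± 0.86 CPM in WT (log2 -1.38 ± 0.17).

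Among the rises, Sema5a, a semaphorin of axon guidance, had 12.7, 12.6 and 15.0 CPM in KO, against 4.33, 5.26 and 6.06 CPM in WT (log2 1.35 ± 0.12, adjusted p = 1.3e-09). Gata3, a trophoblast and T-cell transcription factor, had 6.96, 8.75 and 8.67 CPM in KO, against 4.16, 2.97 and 3.89 CPM in WT (log2 1.14 ± 0.15, adjusted p = 1.5e-06). Of the 5 trophoblast markers checked, only Gata3 and Cdx2 had enough counts to be tested and Gata3 alone was called, and their sum, of which Gata3 was the largest share, was 9.29 to 11.4 CPM in KO and 5.26 to 6.72 CPM in WT. Of the longer trophoblast list, 15 genes were tested, of which 3 were called higher and 1 lower, the keratin Krt19 (log2 -0.66, adjusted p = 0.030). The 3 became 1 without WT replicate 2, WT replicate 3 or KO replicate 3 and 2 without KO replicate 2, and Krt19 lost its call without WT replicate 1, WT replicate 3, KO replicate 2 or KO replicate 3 and by DESeq2. Calcoco2, an autophagy receptor, had 186, 189 and 197 CPM in KO, against 124, 129 and 124 CPM in WT (log2 0.60 ± 0.04, adjusted p = 3.0e-13), and the collagen receptor Ddr2 had 55.2, 56.5 and 56.4 CPM in KO, against 39.9, 36.0 and 36.1 CPM in WT (log2 0.59 ± 0.06). These groups were apart by several times their spread. The neurofilament genes Nefl and Nefm averaged 52.9 ± 0.50 and 21.5 ± 0.02 CPM in KO, against 38.0 ± 1.40 and 14.3 ± 0.59 CPM in WT (log2 0.47 and 0.58), and with Tubb3 (0.42) they were the 3 of 10 neural genes called higher.

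**Figure D4:**
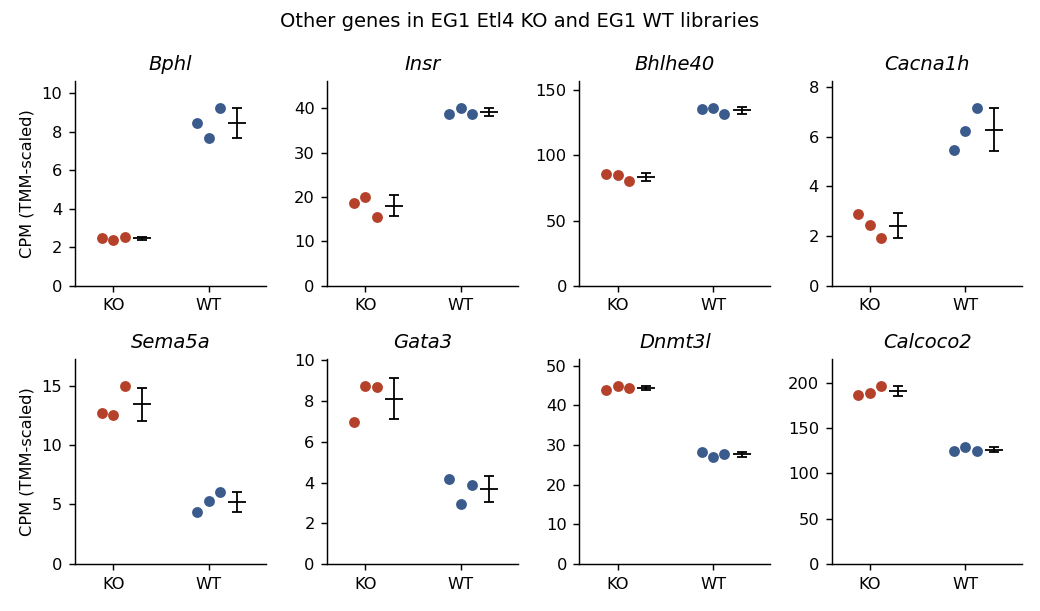
Levels (CPM after TMM scaling, vertical axes from 0) of 8 further genes in the 3 KO libraries (left, red) and the 3 WT libraries (right, blue), with mean ± SD as bars beside the points. Bphl, Insr, Bhlhe40 and Cacna1h are lower in every KO library than in any WT library, and Sema5a, Gata3, Dnmt3l and Calcoco2 are higher. All but Dnmt3l were named by a rule that required no overlap.

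Among genes of respiration, ribosomal proteins, mitosis and centrosomes, 1.72%, 2.22%, 5.13% and 5% of those tested were called higher and none lower. Over all genes tested these shares were 3.6% and 4.06%. Of 58 nuclear genes of oxidative phosphorylation 1 was called (Cox5a, log2 0.12), of 45 ribosomal protein genes 1 (Rpl7a, 0.23, whose groups overlapped), of 39 mitosis genes 2, and of 20 centrosome genes 1 (Pcnt, 0.12). In these lists the medians lay between 0.01 and 0.02. Of 30 ribosome biogenesis genes, 5 were called higher and none lower, with a median of 0.08, and 29 of the 30 had a positive log2 change. The 5 became 1, 2 and 2 without WT replicate 1, 2 and 3, and 10 without KO replicate 1. Of 26 p53 targets 1 was called higher and 3 lower, with the p53-induced cell cycle inhibitor Cdkn1a at 231 ± 6.46 CPM in KO and 252 ± 2.16 CPM in WT (log2 -0.13, adjusted p = 0.017). No chromosome stood apart as a whole, with median log2 changes between -0.03 on the X and 0.01 on chromosome 3.

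The KO effect in EG1 was set against that in OdG, from separate libraries on each side. Of 504 genes called higher in EG1 KO and tested in both parents, 366 (72.6%) were called higher in OdG KO, where 30.6% of all 13630 genes tested in both were. Of 553 called lower in EG1 KO, 349 (63.1%) were called lower in OdG KO, where again 30.6% of all were. These shared calls made up 8.77% and 8.36% of the much longer OdG lists. In the opposite direction, 44 of the 504 (8.73%) were called lower in OdG KO, and 104 of the 553 (18.8%) were called higher. The shares over all genes were not matched for expression level. In a fit over all 12 libraries, the difference between the KO effects was called for 5958 of 14977 genes (39.8%), 2928 with a higher value in EG1 (19.5%) and 3030 with a lower value (20.2%). Etl4 fell alike in both, by 0.99 in EG1 and 0.98 in OdG on the log2 scale, with a difference of -0.00 ± 0.05 (adjusted p = 0.98).

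The lists that changed most in EG1 compared with OdG in 3 ways. The 2-cell-like genes went in opposite directions, with 18 of 20 called lower in EG1 than in OdG and a median log2 change of -0.91 in EG1, against 1.51 in OdG, where 14 of 18 were called higher. The OdG KO lines differed here, and Zscan4d averaged 1.93 ± 0.32 CPM in OdG KO line 1 and 7.44 ± 0.38 CPM in line 2, against 1.37 ± 0.06 CPM in OdG WT (SD, n = 2 each). For Zscan4a the log2 change was -1.02 in EG1, against 1.68 in OdG, a difference of -2.69 ± 0.24 (adjusted p = 2.3e-10). Hypoxia genes fell in both, less in EG1, with medians of -0.29 in EG1 and -1.25 in OdG and 21 of 23 called for the difference. Slc2a1 changed by -0.33 in EG1 and by -1.64 in OdG, a difference of 1.32 (adjusted p = 1.8e-21). The stress response had medians of 0.21 in EG1 and 0.24 in OdG, but was less even in OdG. There 20 of 30 members were called higher and 8 lower, against 29.4% and 30.5% of all genes tested in OdG. In EG1 23 of 30 were called higher and none lower. For the difference between parents its members divided, 14 being higher and 6 lower in EG1. Chac1 changed by 1.63 in EG1 and 0.54 in OdG (difference 1.10, adjusted p = 1.7e-07), Atf4 by 0.60 in EG1 and 0.10 in OdG (difference 0.52, adjusted p = 1.5e-10), and Mthfd2 by 0.39 in EG1 and 0.53 in OdG, a difference of -0.12 that was not called (adjusted p = 0.11).

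**Figure D5:**
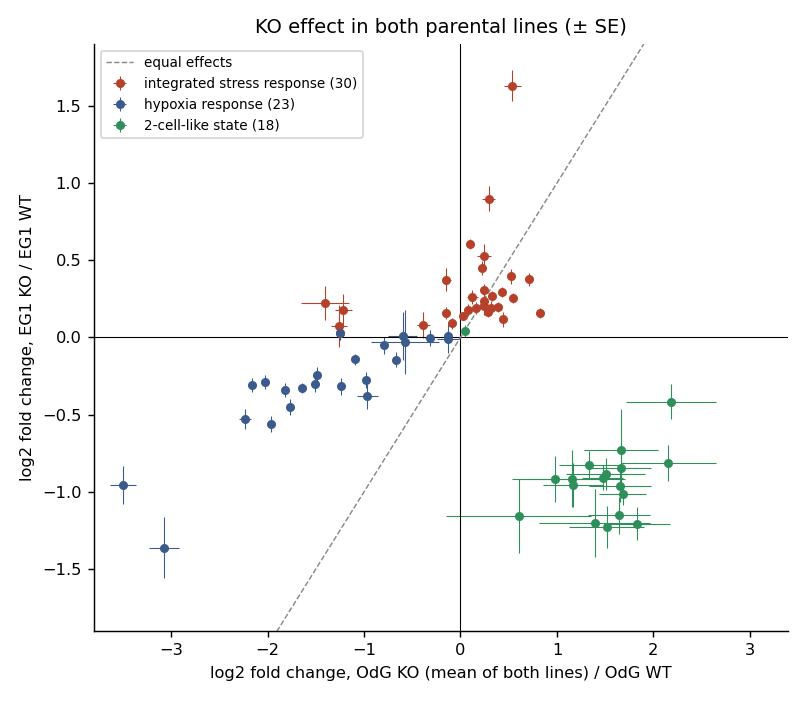
Log2 fold change of KO over WT in EG1 (vertical axis) against that in OdG, the mean of its 2 KO lines (horizontal axis), for tested members of 3 lists, with bars of ± 1 SE and a dashed line of equal effects. The 2-cell-like genes lie mostly at the lower right, low in EG1 KO and high in OdG KO, the hypoxia genes lie left of the dashed line, and Chac1 is the highest point at 1.63.

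Other genes differed between the parents in sign. Sema5a changed by 1.35 in EG1 and by -0.53 in OdG (difference 1.89, adjusted p = 8.8e-13), and Amotl2 by 0.42 in EG1 and -0.47 in OdG (difference 0.90). Lefty1, a Nodal antagonist, changed by -0.35 in EG1 and by 1.40 in OdG (difference -1.74, adjusted p = 1.5e-13). Changes of close size in both parents were seen in Slco2a1, a prostaglandin transporter (0.84 in EG1 and 0.76 in OdG), and Trpm1, a cation channel (-0.46 in EG1 and -0.57 in OdG), whose differences of 0.08 ± 0.10 and 0.12 ± 0.06 were not called.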

How the data were processed

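RNA from 6 EG1 libraries, and from 6 OdG libraries for the comparison of parents, was sequenced from 1 µg of input per library, per the labels' protocols. Tools named in the submitters' processing notes are HISAT2 2.1.0 and featureCounts 1.6.4, besides CASAVA and DESeq2, with mm10 as the build. Neither the strand setting nor the annotation behind the counts is stated in the sources at hand, so reads of overlapping or antisense genes and of near-identical copies cannot be told apart. The values deposited by the authors are raw read counts, in whole numbers, for 24421 gene symbols, and columns were matched to samples by name and description.

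In edgeR 4.0.16 (R 4.3.3), filterByExpr left 14016 genes of the 6 EG1 libraries, TMM factors (a trimmed mean of log ratios) set the scaling, and KO and WT means entered a quasi-likelihood fit (biological coefficient of variation 3.53%). Tests were two-sided, and genes were called at a Benjamini-Hochberg adjusted p under 0.05 over all genes tested. CPM are mean ± SD over 3 libraries, and fold changes are log2 KO over WT ± SE. The difference between parents was an interaction over 12 libraries, with OdG KO as the mean of its 2 lines. Alternatives were DESeq2 1.42.0, other scaling and filtering, a replicate block, each library left out, all 12 libraries in the fit and, added after seeing the data, a test against a 1.5-fold change. The model was tested on simulated data. Replicates differed by more than sampling noise. Motifs were searched in RefSeq promoter windows, and positions are from RefSeq GRCm38.p6.

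The members of the comparison and the 44 gene lists were chosen with earlier results of these data known. Genes were named by a rule. It took Etl4, the 12 largest changes each way with at least 5 CPM, and the 8 largest each way with at least 50 CPM. Both of these sets of changes required no overlap between groups, so separate groups in their genes follow from the rule. It also took up to 4 called members per list and the 6 largest parental differences each way. Symbols of clone style (predicted genes) were not named. Other members of a list are named to show its range and were chosen after their values were seen. Some genes that the rule or the lists took are not reported here.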

Additional observations from a re-analysis of the deposited data

Results flagged for a closer look

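All results here were singled out because the KO effect differed between the parental lines by the interaction test of edgeR (adjusted p under 0.05) and by at least 2 on the log2 scale. Of 149 named genes tested for it, 25 met both conditions and 103 were called with a smaller difference. Values are log2 effects in EG1 minus those in OdG, and no cause was tested.

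The 2-cell-like group differed downward, with Usp17le at -3.03, Usp17lc at -2.79, Zfp352 at -2.74, Zscan4a at -2.69, Zscan4f at -2.61, Pramef25 at -2.55, Zscan4c at -2.50, Zscan4d at -2.38 and BB287469 at -2.13. Pramef25 and BB287469 are not on the 2-cell-like list. OdG libraries held few reads of these genes, such as 55 counts of Zscan4a over 2 libraries of KO line 1 and 207 over 2 of KO line 2, against 33 over 2 WT libraries. EG1 had 986 counts over 3 KO libraries and 2110 over 3 WT libraries. Usp26 (-2.31) fell in EG1 and rose in OdG, with 708 counts in OdG KO line 1 and 3826 in line 2, against 477 in OdG WT. Nefm (-2.09) rose in both, more in OdG, with 193 counts in OdG KO line 1 and 827 in line 2, against 62 in OdG WT. The hypoxia gene Ndufa4l2 (2.55), Cacna1h (2.21) and Fgfr3 (2.08) fell in both, more in OdG.

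EG1 KO and WT were not called apart for Gnpda2, Guf1, Tfap2c, Aire or Snhg18. Gnpda2 (-9.25), Guf1 (-8.10) and Tfap2c (-6.48) had 1369, 3135 and 4210 counts over the 4 OdG KO libraries, against 1, 6 and 13 counts over the 2 OdG WT libraries. Of the 4210 Tfap2c counts, 357 were in OdG KO line 1 and 3853 in line 2. The value for Gnpda2, with 1 count in OdG WT, depends on the fit's handling of low counts and ranged from -11.60 to -8.38 with a library left out. Aire differed by 2.51 and Snhg18 by 2.38, both lower in OdG KO than in OdG WT. Peg13 (-4.54), Mirg (-3.60), H2-M10.4 (-3.56), St8sia2 (4.58), Krt80 (3.09) and Igf2os (2.89) each had at most 9 counts in a WT group, so their fitted values are not bounds. St8sia2, Krt80 and Igf2os had too few counts in EG1 to be tested there, with 5, 14 and 8 counts over the 3 EG1 KO libraries, against 0, 9 and 2 over the 3 EG1 WT libraries. With a library left out, the difference ranged from 0.71 to 5.13 for St8sia2, from 2.47 to 3.43 for Krt80, from 2.11 to 5.49 for Igf2os, from -5.90 to -1.70 for H2-M10.4, from -5.95 to -2.76 for Mirg and from -4.87 to -3.98 for Peg13. H2-M10.4 was called lower in EG1 KO (162 counts, against 291 in EG1 WT). The calls of Peg13, Mirg, H2-M10.4, St8sia2 and Igf2os were lost in at least 1 set with a library left out. The OdG KO lines also differed, with 2 counts of Mirg in line 1 and 112 in line 2, against 1 in OdG WT. Igf2os had 182 counts in line 1 and 27 in line 2, against 140 in OdG WT.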

How the results depend on the processing

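Of 1074 calls, 1064 were shared with size factors of the relative log expression kind (1070 calls), 1059 with no filter on low counts (1191) and 1023 with all 12 libraries in the fit (1156). DESeq2 called 659 genes, of which 651 were shared, with 309 lower, 30 changed by at least 1 on the log2 scale and 3 lysosome genes lower, and the cause was not tested. A test against a 1.5-fold change called 26 genes, 6 higher and 20 lower, 19 of them changed by at least 1, which follows from its stricter null. With libraries left out in turn, calls ranged from 638 to 1213 (higher 257 to 595, lower 365 to 618, changed by at least 1 from 45 to 73), and the log2 change of Etl4 from -1.002 to -0.99. List counts ranged from 21 to 23 (stress response, higher), 16 to 18 (2-cell-like, lower), 14 to 16 (hypoxia, lower), 12 to 15 (glycolysis, lower), 5 to 9 (cholesterol, lower), 5 to 6 (core pluripotency, higher), 6 to 11 (actin, higher), 3 to 6 (DNA methylation, higher) and 1 to 11 (lysosome, lower). Calls of a parental difference ranged from 5122 to 5914, against 5958 with all libraries. Deviations of samples of the same number had correlations of -0.05, -0.00 and -0.05, within the range of -0.09 to 0.11 for samples of different numbers. With 3 replicates a group these values cannot exclude a pairing by number. With the replicate block 906 genes were called, 409 higher and 497 lower. Of 138 named genes called in EG1, 97 kept their call in every alternative other than the test against a 1.5-fold change, and the other 41 had log2 changes of at most 0.66 in size. No direction of a called gene reversed. With 3 libraries a side, an exact permutation test could not go below p = 0.10.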

Other observations

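Several smaller groups showed values that belong to none of the pathways above. Of 22 Nodal, BMP and TGF-beta targets, 5 were called lower and 2 higher, with Lefty1 at 29.5 ± 1.46 CPM in KO and 37.6 ± 1.62 CPM in WT (log2 -0.35 ± 0.06, adjusted p = 2.4e-04), and 2 of the 5 were called without KO replicate 2, 3 without WT replicate 1 and 3 without WT replicate 3. Of 24 germline genes silenced by DNA methylation, 3 were called lower and none higher, with Sohlh2, a germ cell transcription factor, at 115, 118 and 117 CPM in KO, against 137, 137 and 135 CPM in WT (log2 -0.23 ± 0.04). Of 43 imprinted genes tested in the maternal and paternal lists, 6 were called. In the maternal list 1 of 18 was called higher and 1 lower, and in the paternal list 2 of 25 were called each way. Over all genes tested, 3.6% were called higher and 4.06% lower. H19 averaged 6.67 ± 0.55 CPM in KO and 4.22 ± 0.61 CPM in WT (log2 0.66 ± 0.15). Plagl1 averaged 254 ± 8.91 CPM in KO and 209 ± 1.05 CPM in WT (log2 0.28 ± 0.04). Igf2r was called lower (log2 -0.13) but lost its call in 5 sets with a library left out. Atf3, a stress-induced partner of ATF4 kept on the immediate early list, had 6.56, 3.46 and 5.15 CPM in KO, against 2.98, 2.69 and 2.58 CPM in WT (log2 0.88 ± 0.19, adjusted p = 0.0025), its KO libraries being spread but all above WT.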
